A study of Homo sapiens with 15 samples.

Results

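The double-strand break and Fanconi repair genes are 41 genes, chosen by symbol and matched to Ensembl identifiers, out of the 61552 genes in the deposited count table. They fall into 10 genes of homologous recombination, 7 of end joining, 10 of the Fanconi pathway, 8 of end sensing, resection and unwinding, 4 checkpoint kinases, and the pair formed by POLQ and PARP1. All 41 passed the filter on low counts in every comparison. RNA was sequenced from MDA-MB-468 cells, an established human breast cancer line that overexpresses the epidermal growth factor receptor (EGFR), in 5 groups of 3 libraries. In the drug experiment the cells were serum starved for 12 h and given EGF at 10 ng/mL, alone (EGF), with 10 μM of the peptide cSNX1.3, which blocks binding of EGFR to Sorting Nexin 1 and thereby its transport to the nucleus, or with 15 μM of erlotinib, an inhibitor of the EGFR tyrosine kinase, for 12 h. In the line experiment both groups carried an IPTG-inducible lentiviral shRNA against the 3'-UTR of endogenous EGFR. They were then transfected with GFP-tagged EGFR that was either wildtype (WT, labelled shEGFR-WT) or had 3 basic residues of its nuclear localization sequence changed to aspartic acid (ΔNLS, labelled shEGFR-NLS). The lines received EGF, but the sources used here give no dose or time for them, nor whether each line is 1 clone. Nothing states that replicates came from separate cultures, so p-values measure the spread between these libraries.

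A break through both DNA strands can be joined directly or copied from the sister chromatid. In end joining, the Ku heterodimer holds the ends and recruits the kinase DNA-PKcs and the ligase complex. In homologous recombination, the ends are cut back to single strands, BRCA2 loads the recombinase with help from PALB2 and BRCA1, and an intact template is copied, which is why the pathway works mainly in S and G2 phase. The Fanconi proteins unhook crosslinks between the strands: a core complex of several FANC proteins adds ubiquitin to FANCD2 and FANCI, and the lesion is then repaired with recombination proteins. Nuclear EGFR has been linked to repair through its contact with DNA-PKcs, which concerns the protein and not the RNA measured here.

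The libraries held 22915676 to 35900649 counts, of which the 41 genes took 0.258 to 0.397%. EGFR itself, the gene that was knocked down and put back, stood at 4200 to 4950 CPM (read counts scaled to a common library size, here always by the TMM method of edgeR and separately in each experiment) with EGF, 4520 to 4970 with erlotinib, 5660 to 6450 with cSNX1.3, 1170 to 1470 in WT and 1710 to 1780 in ΔNLS libraries. Reads of the introduced EGFR are counted in these values, so they do not measure the knockdown alone, and the ΔNLS libraries held more EGFR RNA than the WT libraries. The 8 epithelial markers summed to 8520 to 21500 CPM over all libraries and none was at 0, whereas the 6 fibroblast markers summed to 8.58 to 21.3, the 6 leukocyte markers to 9.35 to 42.7, the 4 endothelial markers to 8.62 to 17.1 and the 2 hormone receptor genes to 2.75 to 8.53 CPM. Nearly all of the leukocyte sum was CD14, and the pan-leukocyte gene PTPRC had at most 7 reads in a library. Shifts of the epithelial and leukocyte lists are given with the comparisons. In ΔNLS against WT libraries the hormone receptor sum was 6.44 to 8.53 against 4.13 to 4.56 CPM. The fibroblast sum there was 8.58 to 10.9 against 11.2 to 13.2 CPM and the endothelial sum 15.8 to 17.1 against 14.1 to 15.4 CPM. The fibroblast sum was 15.6 to 18.9 CPM with EGF, 11.0 to 15.2 with erlotinib and 19.9 to 21.3 with cSNX1.3. The hormone receptor sum was 2.75 to 4.89 CPM with cSNX1.3 against 5.31 to 6.09 with EGF. EGF replicate 2 stood apart from the other EGF libraries (chi-square per degree of freedom 18.8 and 24.4, against 3.58 between the others), WT replicate 2 did so among WT libraries (15.8 and 19.2, against 2.69) and cSNX1.3 replicate 1 among its group (15.6 and 22.5, against 5.86). In several long genes below, among them BRCA2, XRCC2 and POLQ, EGF replicate 2 and WT replicate 2 were the lowest of their groups.

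Per kilobase of the canonical transcript, the genes ranged over nearly 3 orders of magnitude. In EGF libraries the top of the order was held by the 2 Ku subunits, XRCC6 with 336 CPM per kb and XRCC5 with 131, followed by PARP1, the poly(ADP-ribose) polymerase that senses nicks and breaks, with 85.1. RPA1 and RPA2, subunits of the protein that coats single-stranded DNA, stood at 44.0 and 34.6, next to the Fanconi core protein FANCG at 35.0, and the ranges of FANCG and RPA2 overlapped. At the other end were FANCM (0.874), RAD50 (0.854) and NHEJ1 (0.532 CPM per kb). RAD50 and NHEJ1 share 76.9 and 25.9% of their exon bases with other genes, and the part of this in their low levels was not tested. BRCA1 ranked 21 of 41 with 5.06 CPM per kb and BRCA2 ranked 36 with 1.15. Neighbours in the middle of the order, such as BARD1 (5.37), ATR (5.26), BRCA1 and LIG4 (4.88), lay within the range of the BRCA1 libraries. The rank depends on the length used: FANCL ranked 9 by its canonical transcript and 36 by all its annotated exons.

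**Figure D1:**
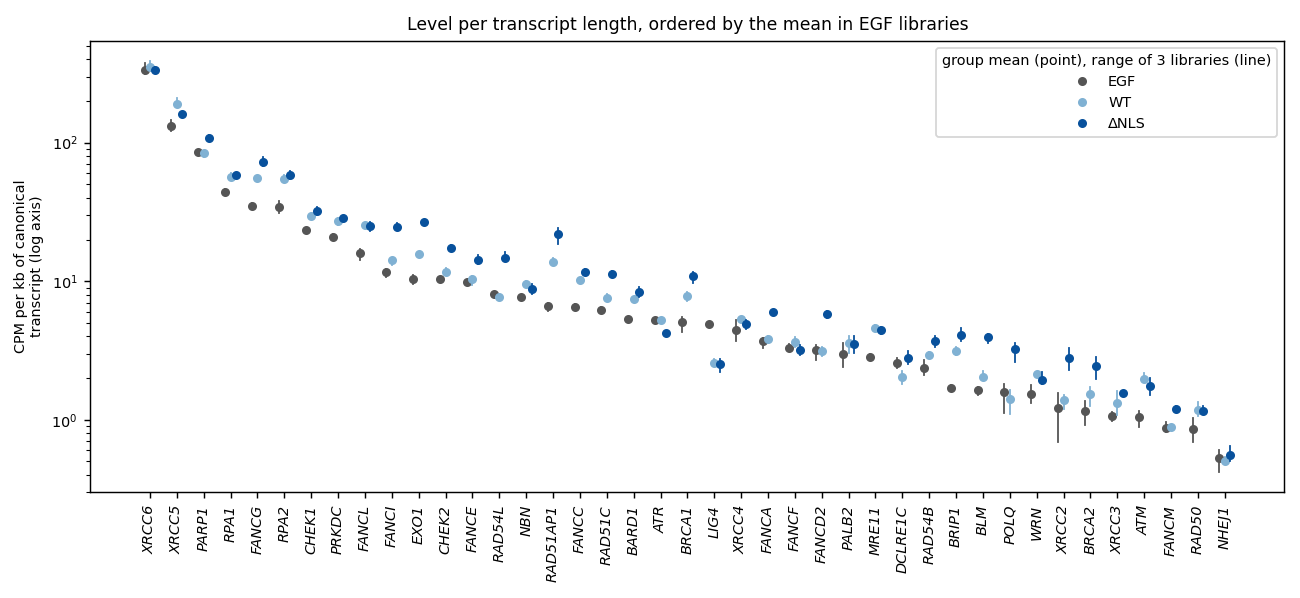
Level of each of the 41 genes as CPM per kb of canonical transcript on a log axis, as the mean (point) and range (line) of 3 libraries, for EGF, WT and ΔNLS, ordered by the EGF mean. XRCC6, at 336 CPM per kb in EGF libraries, leads the order and NHEJ1, at 0.532, ends it; the 2 experiments were scaled separately.

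Of the 3 comparisons with a control, ΔNLS vs. WT had the most repair genes called, mainly in one direction. The WT and ΔNLS cells received separate transfections and differed in EGFR RNA, so the mutation cannot be told apart from these here. In ΔNLS vs. WT, the quasi-likelihood test of edgeR, with a Benjamini-Hochberg adjusted p under 0.05, called 23 of the 41 genes, which is 56.1% beside 41.4% of all 15805 genes tested. Of these, 21 were higher and 2 lower, where among all genes 20.4% were called higher and 21.0% lower. Erlotinib gave 15 calls among the 41 against EGF, 10 of them higher and 5 lower, which is 36.6% beside a background of 44.0% of 15738 genes. For cSNX1.3 against EGF there were 4 calls, all lower, which is 9.76% beside 6.07%. Among all genes, 2.69% were called lower and 3.38% higher. The median log2 fold change of the 41 genes was 0.25 in ΔNLS vs. WT, 0.06 with erlotinib and -0.14 with cSNX1.3, while that of all genes tested was 0.01, 0.01 and 0.00. Groups did not overlap for 25 of the 41 genes in ΔNLS vs. WT (52.3% of all genes), 21 with erlotinib (52.3%) and 16 with cSNX1.3 (26.4%). Changes were modest in size, with the largest call at a log2 fold change of 1.20, that of POLQ in ΔNLS vs. WT.

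**Figure D2:**
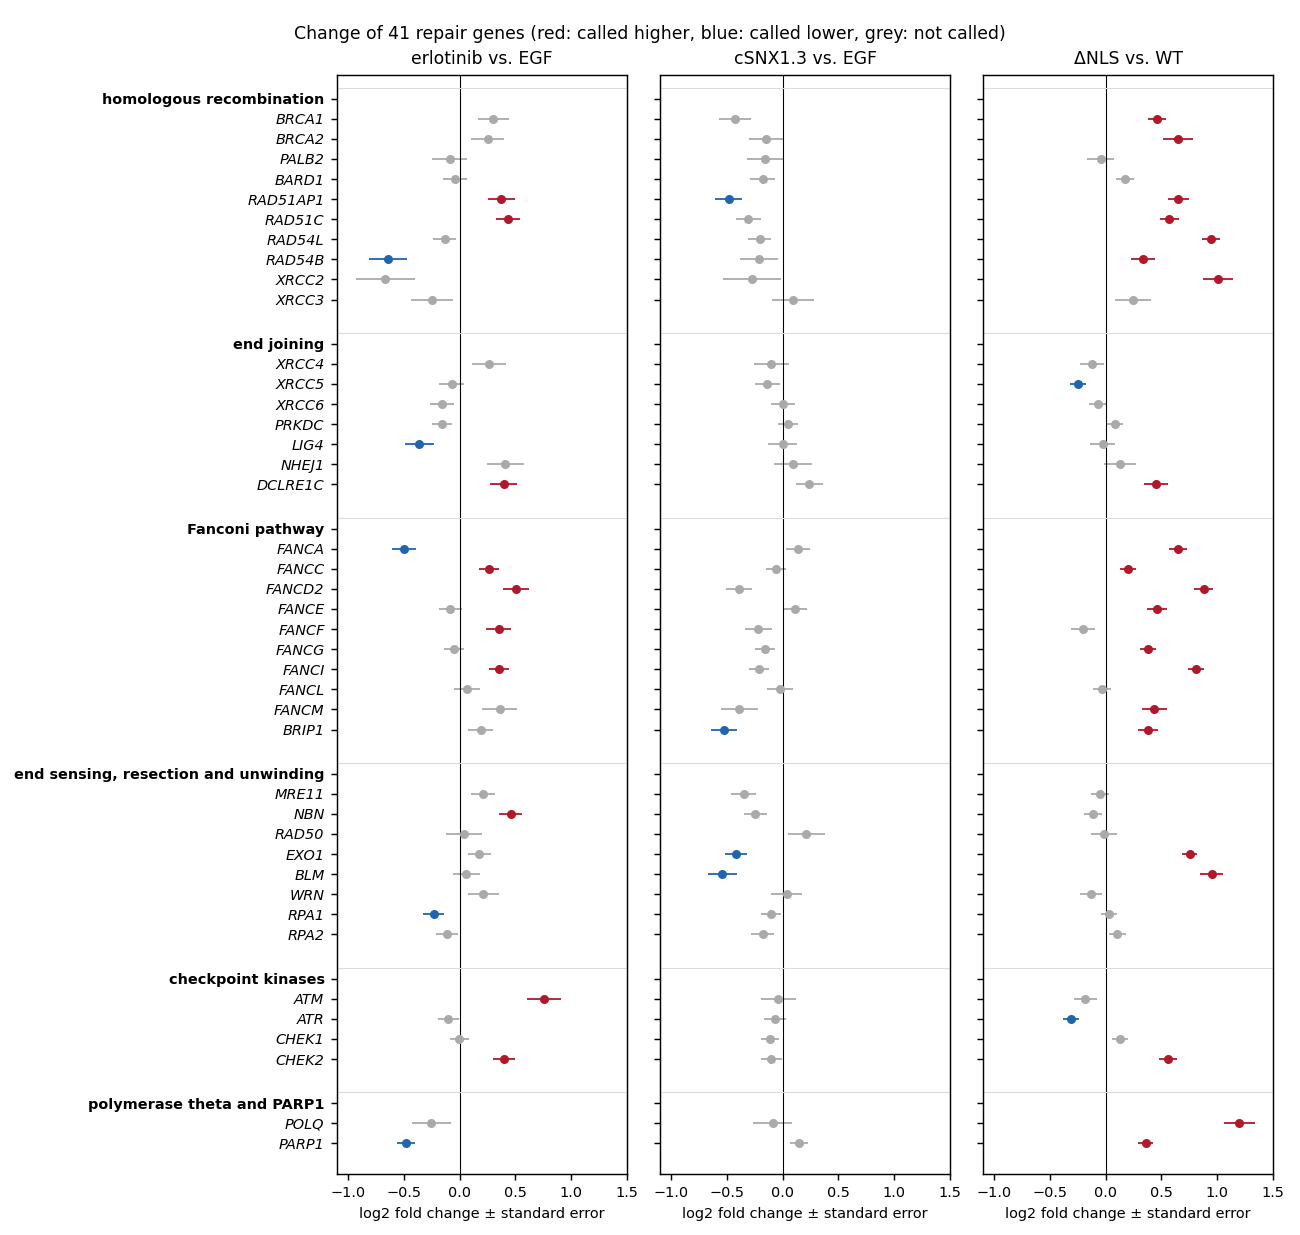
Log2 fold change with its standard error for each of the 41 genes, grouped by role, in erlotinib vs. EGF, cSNX1.3 vs. EGF and ΔNLS vs. WT (3 libraries per group; red is called higher, blue called lower, grey not called by edgeR). Red dominates the ΔNLS panel with 21 genes, the erlotinib panel has 10 red and 5 blue, and the cSNX1.3 panel has 4 blue.

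In ΔNLS vs. WT, 7 of the 10 recombination genes rose (70% called beside 41.4% of all genes), and the median over the 10 was 0.52 on the log2 scale. BRCA1 (ENSG00000012048, chr17:43044295-43170245), the ubiquitin ligase that directs breaks toward recombination, stood at 57.2, 51.0 and 59.3 CPM in the 3 WT libraries and at 68.8, 82.2 and 79.7 in the ΔNLS libraries. The groups did not overlap, and the log2 fold change was 0.46 (standard error 0.08, adjusted p = 0.000338). Its partner BARD1 did not pass the test (0.17, adjusted p = 0.0874). BRCA2 (ENSG00000139618, chr13:32315086-32400268), which loads the recombinase onto single-stranded DNA, measured 19.8, 15.1 and 20.5 CPM in WT and 23.4, 33.9 and 29.8 in ΔNLS libraries, again without overlap (0.65, standard error 0.14, adjusted p = 0.00139). PALB2, the bridge between BRCA1 and BRCA2, gave -0.04 with adjusted p = 0.796.

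XRCC2 and RAD54L had the largest changes in this role. RAD54L (ENSG00000085999, chr1:46246461-46278480), a motor protein that helps the filament invade the template, measured 23.1, 23.5 and 24.1 CPM in WT and 49.9, 43.1 and 43.0 in ΔNLS libraries. Every ΔNLS library was above every WT library by more than the spread within either group (log2 fold change 0.94, standard error 0.08, adjusted p = 1.53e-07). Of the exon bases of RAD54L, 19.9% lie opposite LRRC41, in counts made without strand. XRCC2 (ENSG00000196584, chr7:152644776-152676193), a paralog of the recombinase, measured 7.18, 5.71 and 6.94 CPM in WT and 11.0, 15.8 and 13.1 in ΔNLS libraries (1.01, standard error 0.14, adjusted p = 2.22e-05). RAD51AP1 (ENSG00000111247, chr12:4538798-4560047), which stimulates strand invasion, measured 28.9, 30.8 and 28.2 CPM in WT and 38.9, 51.1 and 47.9 in ΔNLS libraries. Here too the lowest ΔNLS library lay above the highest WT library (0.65, standard error 0.09, adjusted p = 4.44e-05). RAD51C (ENSG00000108384, chr17:58692573-58735611), another paralog, rose from 19.0, 20.8 and 18.7 to 27.4, 28.9 and 30.4 CPM (0.57, adjusted p = 5.01e-05). RAD54B, a relative of RAD54L, measured 8.59, 9.55 and 8.98 CPM in WT and 10.4, 12.4 and 11.6 in ΔNLS libraries (0.34, adjusted p = 0.0194). That call was lost without 1 library in 4 of 6 such fits, and 66.0% of the exon bases of RAD54B are shared with FSBP on the same strand. XRCC3 gave 0.25 without a call, and 76.7% of its exon bases lie opposite KLC1, whose reads cannot be told apart in counts made without strand.

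The Fanconi pathway followed the same direction, with 8 of 10 genes called higher (80% called beside 41.4% of all genes) and a median of 0.41. The substrates of the pathway changed most. FANCD2 (ENSG00000144554, chr3:10026370-10101932) measured 17.1, 14.8 and 16.1 CPM in WT and 27.6, 31.0 and 29.6 in ΔNLS libraries, with no overlap (0.88, standard error 0.09, adjusted p = 8.08e-07). FANCI (ENSG00000140525, chr15:89243945-89317261), its partner, rose from 70.0, 62.2 and 68.3 to 111, 125 and 116 CPM (0.81, adjusted p = 2.53e-07). Within the core complex the members did not all pass. FANCA (ENSG00000187741, chr16:89726683-89816977) measured 21.8, 19.9 and 21.2 CPM in WT and 32.9, 32.8 and 33.0 in ΔNLS libraries (0.65, standard error 0.08, adjusted p = 5.8e-06). All its ΔNLS libraries were above all WT libraries. FANCE (0.46), FANCG (0.38), FANCC (0.20) and the translocase FANCM (0.43) also rose, the call on FANCC being lost without 1 library in 4 of 6 fits. FANCL, the ubiquitin ligase subunit, and FANCF were not called (-0.03 and -0.20). BRIP1 (ENSG00000136492, chr17:61679139-61863559), the helicase that binds BRCA1, measured 23.8, 27.3 and 25.9 CPM in WT and 30.3, 37.6 and 32.4 in ΔNLS libraries (0.38, standard error 0.09, adjusted p = 0.00338).

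Among the 8 genes that sense, cut back and unwind ends, 2 rose, EXO1 and BLM, and none fell (25% called beside 41.4% of all genes). EXO1 (ENSG00000174371, chr1:241847967-241895148), the exonuclease of long-range resection, measured 55.1, 55.9 and 52.9 CPM in WT and 94.0, 92.8 and 89.6 in ΔNLS libraries. The groups were far apart relative to their spread (0.75, standard error 0.07, adjusted p = 1.97e-07). BLM (ENSG00000197299, chr15:90717346-90816166), the helicase that works with it and dissolves recombination intermediates, measured 10.1, 10.2 and 11.7 CPM in WT and 18.8, 21.8 and 21.4 in ΔNLS libraries (0.95, standard error 0.10, adjusted p = 1.39e-06). The complex that first binds and trims ends was not called in any of its 3 subunits, with log2 fold changes of -0.06 for MRE11, -0.12 for NBN and -0.01 for RAD50 and adjusted p = 0.611, 0.257 and 0.936. The 95% intervals of these changes ran from -0.22 to 0.10, from -0.27 to 0.04 and from -0.24 to 0.22. Here and below such intervals take a normal approximation, which makes them somewhat narrower than the test allows. For RAD50, 76.9% of the exon bases are shared, mostly with a gene on the same strand. The helicase WRN (-0.13) and RPA1 and RPA2 were not called either.

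POLQ and PARP1 both rose, where 20.4% of all genes were called higher. POLQ (ENSG00000051341, chr3:121431431-121545988), the polymerase of microhomology-mediated end joining, measured 12.9, 9.68 and 14.4 CPM in WT and 23.0, 31.4 and 30.6 in ΔNLS libraries, and its log2 fold change of 1.20 was the largest of the 41 (standard error 0.14, adjusted p = 9.78e-06). PARP1 (ENSG00000143799, chr1:226360210-226408154) measured 345, 315 and 344 CPM in WT and 449, 413 and 423 in ΔNLS libraries (0.36, standard error 0.07, adjusted p = 0.000748). Neither gene had overlapping groups.

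In classical end joining 1 gene rose and 1 fell of 7, which is 28.6% called beside 41.4% of all genes tested, with a median of -0.03. XRCC5 (ENSG00000079246, chr2:216107464-216206303), the larger Ku subunit, measured 621, 707 and 615 CPM in WT and 555, 549 and 531 in ΔNLS libraries and fell without overlap (-0.25, standard error 0.08, adjusted p = 0.0141). The call was lost in the fit of all 15 libraries (adjusted p = 0.0689), when GC content and length were corrected for (0.0556) and without ΔNLS replicate 3 (0.0756). XRCC6 (ENSG00000196419, chr22:41621163-41664048), the other Ku subunit, measured 723, 822 and 709.5 CPM in WT and 742, 686 and 714 in ΔNLS libraries, and its groups overlapped (-0.07, 95% interval -0.23 to 0.08, adjusted p = 0.473). PRKDC, which encodes DNA-PKcs, the kinase to which nuclear EGFR has been linked, measured 383, 340.3 and 373 CPM in WT and 373, 392 and 397 in ΔNLS libraries. These groups overlapped as well (0.08, 95% interval -0.06 to 0.22, adjusted p = 0.368). DCLRE1C, the nuclease Artemis, was the gene that rose (0.45, adjusted p = 0.00369). LIG4, XRCC4 and NHEJ1, the ligase and its cofactors, gave -0.03, -0.12 and 0.13 without a call. Whether the changes of end joining genes differed as a group from those of recombination genes was not tested.

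Of the 4 checkpoint kinases 1 was called higher and 1 lower (50% beside 41.4% of all genes). CHEK2, which acts below ATM, rose (0.56, adjusted p = 3.69e-05), and ATR, the kinase that answers to single-stranded DNA, fell from 42.9, 44.3 and 42.0 to 34.2, 35.5 and 34.2 CPM (-0.31, adjusted p = 0.00242). ATM (ENSG00000149311, chr11:108223044-108369102), the kinase activated at breaks, measured 28.0, 24.2 and 24.4 CPM in WT and 19.3, 25.9 and 22.2 in ΔNLS libraries, and these groups overlapped (-0.19, adjusted p = 0.17). CHEK1 (ENSG00000149554, chr11:125625163-125676255), the effector of ATR, measured 121, 126 and 118 CPM in WT and 123, 141 and 133 in ΔNLS libraries, also with overlap (0.13, 95% interval -0.01 to 0.26, adjusted p = 0.166).

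**Figure D3:**
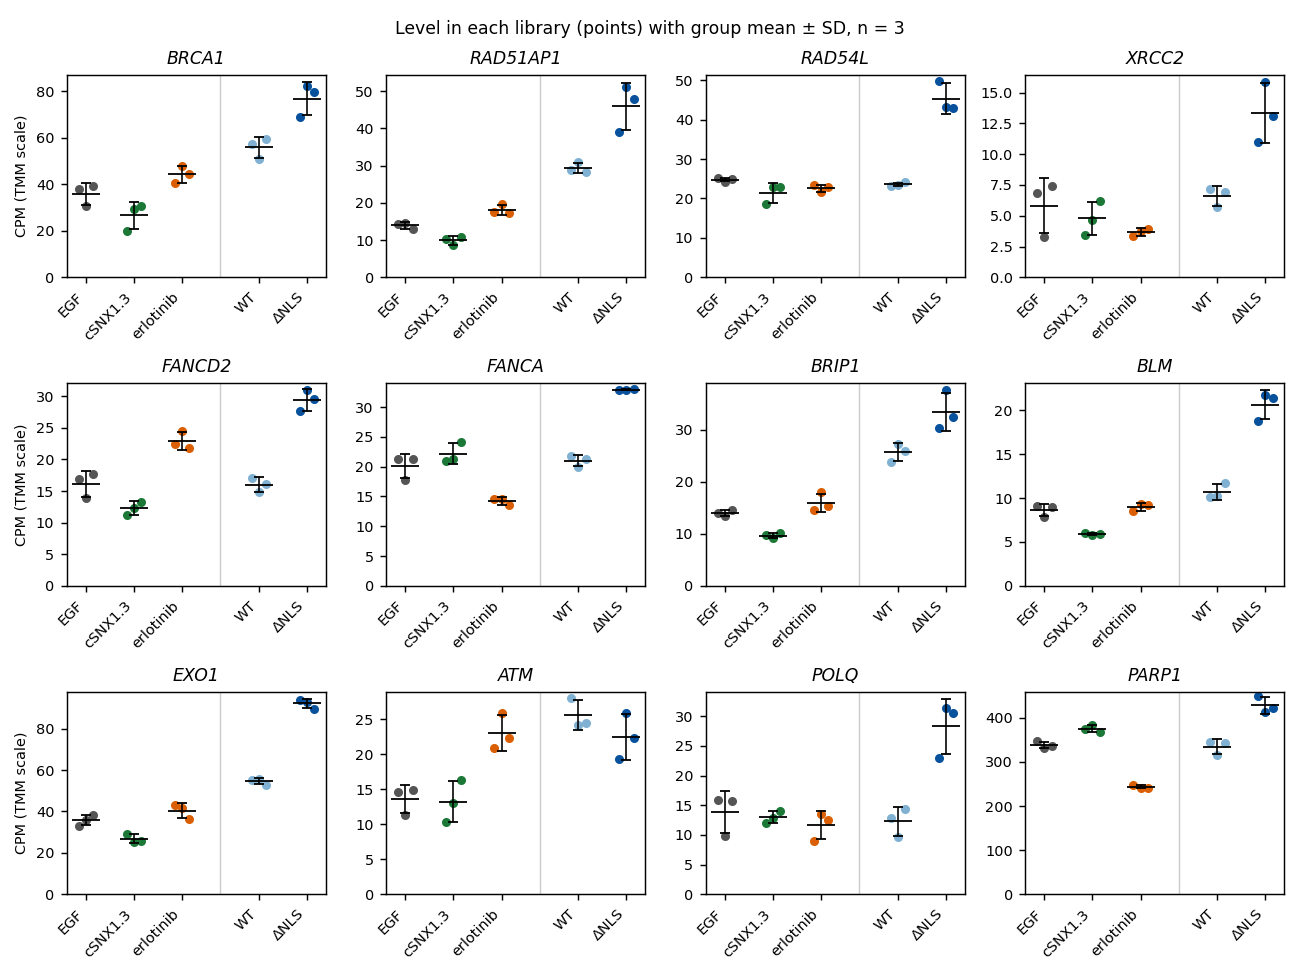
CPM of 12 of the genes in each library (points), with the group mean and SD (n = 3), for the drug experiment to the left of the grey line and the line experiment to its right. RAD54L, XRCC2, FANCA, BLM and POLQ are above WT in all ΔNLS libraries, and in the drug experiment PARP1 and FANCA are lowest with erlotinib and BLM, BRIP1 and RAD51AP1 with cSNX1.3.

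Genes of the cell cycle moved in the same libraries. In ΔNLS vs. WT, 38 of 38 mitosis genes tested rose (median 1.31 on the log2 scale), and their summed level was 5113 to 5824 CPM in ΔNLS against 2288 to 2499 CPM in WT libraries. Of 48 S phase genes, 28 rose and 1 fell, with a median of 0.29, and their sum was 8263 to 8745 CPM against 6683 to 6764 CPM. The 41 repair genes summed to 3798 to 3822 CPM in ΔNLS and 3453 to 3608 CPM in WT libraries. Many recombination and Fanconi genes are transcribed mainly in S and G2 phase, and the part of the cell cycle in their change was not tested. In bulk RNA, more cells in a phase and more RNA of a gene per cell cannot be told apart. Cell type markers moved with these groups too. The epithelial markers summed to 11600 to 14000 CPM in ΔNLS against 18600 to 21500 CPM in WT libraries, with 6 of 8 called lower. The leukocyte markers summed to 38.6 to 42.7 against 26.1 to 37.9 CPM, with CD14 the 1 of 6 tested. The part of these shifts in the changes of the repair genes was not tested. Among repair genes outside the 41, 26 of 64 other break and crosslink repair genes rose and 1 fell, with a median of 0.16, and EME1, a subunit of a nuclease that cuts branched DNA, was the most changed (1.27, adjusted p = 1.73e-05). Of 39 excision and mismatch repair genes 5 rose and 5 fell, with a median of -0.02, and the glycosylase NEIL3 was the most changed (1.13, adjusted p = 2.42e-07).

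Sequence near the start sites was examined because 21 of the 41 genes were called higher in ΔNLS vs. WT and several are textbook targets of E2F, the factor family that drives S phase genes. RefSeq promoter windows, which run from 250 bases before to 50 after a start, were found for 34 of the 41 genes in GRCh38.p14 (48 windows). The E2F letters searched, on both strands, were TTTCCCGC, TTTGGCGC, TTTCGCGC and TTTGCCGC. They were present in 6 of the 34 genes, or 17.6%, and in 12.5% of the windows, against 6.44% of 11421 tested genes and 4.74% of 16488 windows. Of the 19 genes with a window that rose in ΔNLS vs. WT, 5 held a match (26.3%), and of the other 15 genes 1 did (6.67%). The letters TTTGAA of the CHR element of G2 and mitosis genes were in 11.8% of the 34 genes and 13.6% of tested genes, and CCAAT was in 55.9% and 42.5%. By the same split, TTTGAA was in 15.8% of the 19 genes that rose and 6.67% of the other 15. CCAAT went the other way, with 47.4 and 66.7%. None of these differences was tested. A match is only a string of letters, with no measure of binding. The 5 genes that rose and held a match, and XRCC6, which was not called, are shown by 30 bases around 1 match each, 5′ to 3′ on the strand of the gene, with the matched letters in capitals.
XRCC2 (chr7:152676102-152676131, minus strand): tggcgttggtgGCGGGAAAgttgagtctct
FANCA (chr16:89816801-89816830, minus strand): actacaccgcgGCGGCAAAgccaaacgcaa
FANCC (chr9:95317737-95317766, minus strand): ttcgtcggaatTTTCCCGCgacgccgcggg
FANCD2 (chr3:10026424-10026453, plus strand): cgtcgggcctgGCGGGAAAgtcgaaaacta
EXO1 (chr1:241848197-241848226, plus strand): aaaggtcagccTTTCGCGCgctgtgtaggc
XRCC6 (chr22:41621315-41621344, plus strand): tgtccaagttggtcgcttccctGCGCCAAA
In FANCD2 the match spans the start site and in FANCA it begins at position -172 from the start.

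Erlotinib moved the repair genes both ways, with a share called (36.6%) under that of all genes (44.0%). Without EGF replicate 2 the number called was again 15, with 9 higher and 6 lower. The most changed gene was ATM, which measured 14.7, 11.4 and 14.8 CPM with EGF and 20.8, 25.8 and 22.4 with erlotinib. All erlotinib libraries were above all EGF libraries (log2 fold change 0.76, standard error 0.15, adjusted p = 0.000858). CHEK2 rose as well (0.40, adjusted p = 0.00323), while ATR and CHEK1 were not called (-0.10 and 0.00). The CHEK1 libraries ranged from 93.5 to 101 CPM with EGF and from 91.3 to 104 with erlotinib. PARP1 fell from 347, 332 and 337 CPM to 247, 241 and 242 CPM (-0.48, standard error 0.08, adjusted p = 2e-04). POLQ, at 16.0, 9.84 and 15.8 CPM with EGF and 8.98, 13.5 and 12.5 with erlotinib, had overlapping groups and no call (-0.25, adjusted p = 0.266).

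With erlotinib 4 of the 10 Fanconi genes were called higher and 1 lower (50% beside 44.0% of all genes). FANCD2 measured 16.9, 13.9 and 17.7 CPM with EGF and 22.5, 24.5 and 21.8 with erlotinib, with no overlap (0.51, standard error 0.12, adjusted p = 0.00233). FANCI (0.35), FANCF (0.35) and FANCC (0.26) also rose. FANCA went the other way, from 21.4, 17.8 and 21.3 to 14.6, 14.6 and 13.5 CPM (-0.50, standard error 0.11, adjusted p = 0.00173), and 19.6% of its exon bases are shared with another gene. FANCM and BRIP1 gave 0.36 and 0.19 without a call. The call on FANCF was lost without 1 library in 3 of 6 fits and that on FANCC in 2.

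Of the 10 recombination genes, 2 rose and 1 fell with erlotinib (30% called beside 44.0% of all genes). RAD51C measured 15.9, 16.6 and 15.5 CPM with EGF and 19.4, 22.5 and 22.8 with erlotinib (0.43, standard error 0.11, adjusted p = 0.00446). RAD51AP1 measured 14.2, 14.7 and 12.9 CPM with EGF and 17.4, 19.6 and 17.2 with erlotinib (0.38, standard error 0.12, adjusted p = 0.0167), a call that was lost when GC content and length were corrected for. RAD54B fell from 6.49, 6.98 and 8.23 to 4.34, 4.53 and 5.03 CPM (-0.64, adjusted p = 0.00633). These 3 genes had no overlap between groups. BRCA1 measured 37.8, 30.6 and 39.3 CPM with EGF and 40.6, 48.0 and 44.3 with erlotinib, which did not overlap but did not pass the test (0.30, adjusted p = 0.0923). BRCA2, at 14.0, 11.0 and 16.2 CPM with EGF and 13.9, 17.7 and 17.6 with erlotinib, overlapped (0.25, adjusted p = 0.177). XRCC2, at 6.82, 3.27 and 7.38 CPM with EGF and 3.32, 3.79 and 3.90 with erlotinib, had the most negative fold change but no call (-0.67, standard error 0.26, adjusted p = 0.0525). EGF replicate 2 was as low as the erlotinib libraries, and XRCC2 passed in 7 of 9 alternative fits. RAD54L was not called (-0.13).

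Among the remaining roles, NBN rose with erlotinib (0.46, adjusted p = 0.00172) while MRE11 and RAD50 were not called (0.21 and 0.04). EXO1 and BLM were not called, at 43.1, 41.8 and 36.4 and 8.48, 9.30 and 9.25 CPM with erlotinib (0.18 and 0.06). RPA1 was called lower (-0.23, adjusted p = 0.0491), but the call was lost in 6 of 6 fits without 1 library. In end joining DCLRE1C rose (0.39) and LIG4 fell (-0.36), the latter call being lost without 1 library in 4 of 6 fits. The Ku subunits and PRKDC were not called, with -0.07 for XRCC5, -0.16 for XRCC6 and -0.16 for PRKDC and adjusted p = 0.642, 0.244 and 0.17. The PRKDC libraries measured 272, 272 and 294 CPM with EGF and 251, 269.7 and 231 with erlotinib and just failed to overlap.

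Cell cycle genes in the erlotinib libraries moved less uniformly than in the ΔNLS libraries. Of 48 S phase genes 20 fell and 5 rose (median -0.20), with sums of 4130 to 4429 CPM against 4888 to 5062 CPM in EGF libraries. Of 38 mitosis genes 6 rose and 5 fell (median -0.02), with sums of 3920 to 4188 against 4063 to 4144 CPM. All 10 of 10 ERK output genes, which report signalling below the receptor, fell with a median of -2.75. The epithelial markers summed to 8520 to 10000 CPM with erlotinib against 14200 to 17900 CPM with EGF, with 3 of 8 called lower and 1 higher. The leukocyte markers, of which only CD14 was tested and rose, summed to 37.9 to 41.8 against 13.8 to 18.4 CPM, and the endothelial markers to 12.3 to 15.1 against 9.17 to 9.67 CPM. Other break and crosslink repair genes were called higher in 15 and lower in 11 of 64 cases, and excision and mismatch repair genes in 6 and 10 of 39. The part of the cell cycle and marker shifts in the erlotinib changes of the 41 genes was not tested.

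cSNX1.3 lowered 4 of the 41 genes and raised none by the test. BLM measured 9.06, 7.87 and 8.97 CPM with EGF and 6.08, 5.80 and 5.91 with cSNX1.3 (-0.54 on the log2 scale, standard error 0.13, adjusted p = 0.0161). BRIP1 fell from 13.9, 13.4 and 14.5 to 9.69, 9.19 and 10.1 CPM (-0.53, standard error 0.12, adjusted p = 0.0111). RAD51AP1, with the EGF values given above, measured 10.4, 8.57 and 10.9 CPM (-0.48, standard error 0.12, adjusted p = 0.0246). In these genes each cSNX1.3 library lay under each EGF library. EXO1 measured 33.2, 36.1 and 38.1 CPM with EGF and 29.3, 25.3 and 25.8 with cSNX1.3, likewise without overlap (-0.42, standard error 0.10, adjusted p = 0.0204). The 4 calls were sensitive to single libraries. Their number was 2 without EGF replicate 1, 1 without EGF replicate 3, 0 without cSNX1.3 replicate 2 and 2 without cSNX1.3 replicate 3, against 5 without EGF replicate 2 or without cSNX1.3 replicate 1. With DESeq2 it was 5.

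Values below those of EGF were the more common ones under cSNX1.3. With the 4 called genes included, 30 of 41 fold changes were negative, against 7802 of 15738 for all genes. FANCD2 measured 11.2, 12.3 and 13.3 CPM with cSNX1.3, under all EGF libraries, but did not pass (-0.39, adjusted p = 0.0668). It passed in 4 of 9 alternative fits, DESeq2 among them, and without EGF replicate 2. BRCA1 measured 19.9, 29.4 and 30.8 CPM and overlapped the EGF group (-0.43, adjusted p = 0.0962). FANCM measured 6.86, 6.05 and 5.79 CPM with EGF and 4.10, 5.46 and 4.68 with cSNX1.3 (-0.39, adjusted p = 0.194). BRCA2 at 11.6, 11.4 and 14.1 CPM, XRCC2 at 3.47, 4.68 and 6.20 and POLQ at 12.1, 12.8 and 14.1 all overlapped EGF, with -0.15, -0.27 and -0.09. None of the 7 end joining genes was called, where 6.07% of all genes were, and their median was 0.00. XRCC6 measured 677, 797 and 662 CPM with EGF and 796, 691 and 650.4 with cSNX1.3 (95% interval of the log2 fold change -0.21 to 0.21). XRCC5 measured 412, 496 and 423 CPM with EGF and 469, 376 and 367 with cSNX1.3 (-0.36 to 0.08), and PRKDC 296, 301 and 271 CPM with cSNX1.3 (-0.13 to 0.23). These groups overlapped, and the intervals leave room for changes of that size. FANCA at 20.9, 21.4 and 24.1 CPM, ATM at 10.4, 13.0 and 16.2 and PARP1 at 376, 383 and 368, which were called with erlotinib, gave 0.14, -0.04 and 0.15 without a call.

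S phase and mitosis genes were also lower with cSNX1.3. Calls were made on 6 of 48 S phase genes and 5 of 38 mitosis genes, all lower, with medians of -0.17 and -0.18. Their sums were 4322 to 4672 CPM and 3597 to 3743 CPM, under the EGF ranges given above. The epithelial markers summed to 16000 to 20400 CPM, which overlapped the EGF range, with 1 of 8 called higher, and the leukocyte markers to 9.35 to 13.2 CPM, under the EGF range. Of other break and crosslink repair genes 3 of 64 fell (median -0.03), and of excision and mismatch repair genes 1 of 39. Of the 10 ERK output genes 3 rose (median 0.37), while in ΔNLS vs. WT 3 rose and 3 fell (median -0.12). The part of these genes' shift in the 4 repair calls was not tested.

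**Figure D4:**
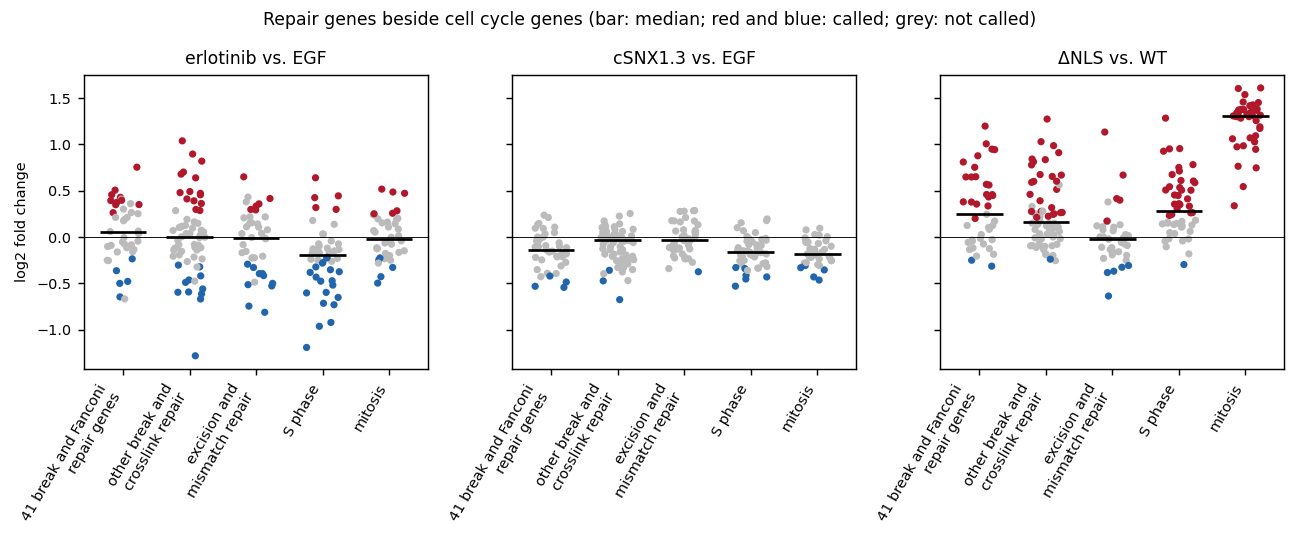
Log2 fold change of each tested gene of the 41 repair genes, of 2 lists of other repair genes and of the S phase and mitosis lists, with the median as a bar, in erlotinib vs. EGF, cSNX1.3 vs. EGF and ΔNLS vs. WT (red is called higher, blue called lower). In ΔNLS vs. WT all mitosis genes are red (median 1.31), above the 41 repair genes (median 0.25), whose own spread reaches from -0.31 to 1.20.

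cSNX1.3 and erlotinib were also compared directly, because both contrasts above use the same EGF libraries. Of the 41 genes, 20 were called in cSNX1.3 vs. erlotinib, which is 48.8% beside 56.1% of all genes, with 16 lower and 4 higher with cSNX1.3 (28.5 and 27.6% of all genes). The groups did not overlap for 21 of the 41, beside 60.3% of all genes. Of the 16, 9 had risen with erlotinib against EGF, 3 had fallen with cSNX1.3 alone, and 4 (BRCA1, BRCA2, FANCM and MRE11) had been called in neither. FANCD2 differed most, at 11.2, 12.3 and 13.3 CPM with cSNX1.3 and 22.5, 24.5 and 21.8 with erlotinib (-0.90, standard error 0.12, adjusted p = 1.01e-05). RAD51AP1 (-0.86), ATM (-0.79), FANCM (-0.75) and RAD51C (-0.74) followed. For FANCM the erlotinib libraries stood at 7.43, 9.62 and 7.03 CPM, above all cSNX1.3 libraries, and for RAD51C the cSNX1.3 libraries stood at 14.2, 12.2 and 12.3 CPM, under all erlotinib libraries. BRCA1 differed by -0.73 (standard error 0.14, adjusted p = 0.000419) without overlap, although neither drug alone changed it by the test. The 4 higher with cSNX1.3 were FANCA (0.64), PARP1 (0.63), RAD54B (0.43) and LIG4 (0.36). All 4 had fallen with erlotinib. Without 1 library, the call on RAD54B was lost in 5 of 6 fits, that on LIG4 in 3 and that on BRCA2, whose groups overlapped, in 4.

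Whether the ΔNLS effect on a gene, that of ΔNLS vs. WT, differed from a drug effect was tested as an interaction over all 15 libraries. No library was shared between the 2 effects. Against the cSNX1.3 effect, 16 of the 41 genes differed and all 16 had the higher value in the ΔNLS effect, which is 39.0% beside 23.1% of 16524 genes (11.3% higher). They included 6 of the 10 recombination genes and 6 of the 10 Fanconi genes but none of the 7 end joining genes. BLM differed most (1.49, standard error 0.15, adjusted p = 1.84e-07), followed by POLQ (1.29), XRCC2 (1.28) and FANCD2 (1.27). The 4 genes that fell with cSNX1.3 (BLM, BRIP1, RAD51AP1 and EXO1) were all among those that rose in ΔNLS cells. Thus no gene of the 41 was called in the same direction in both comparisons. Each of the 4 differences passed the interaction test, which opposite calls in the same libraries nearly fix in advance. Against the erlotinib effect, 15 genes differed, 12 higher and 3 lower, which is 36.6% beside 44.7% of all genes (22.6% higher and 22.1% lower). XRCC2 (1.68), POLQ (1.46), FANCA (1.16) and RAD54L (1.09) had the largest differences toward ΔNLS, and ATM (-0.93), NBN (-0.56) and FANCF (-0.54) were the 3 with a lower value in the ΔNLS effect. FANCA, RAD54B and PARP1 fell with erlotinib and rose in ΔNLS cells, and all 3 differences passed, which their opposite calls likewise nearly fix. RAD51AP1, RAD51C, DCLRE1C, FANCC, FANCD2, FANCI and CHEK2 rose in both. Of these 7, FANCD2 and FANCI rose more in ΔNLS cells by the interaction test, the call on FANCD2 being lost without 1 library in 8 of 12 fits. In both interactions 9 genes were called, all higher: RAD54L, XRCC2, FANCA, FANCD2, FANCG, FANCI, EXO1, BLM and POLQ. The 2 interactions share the ΔNLS, WT and EGF libraries, so calls in both are not separate results. The share of all genes called in both, or in the pairs of comparisons above, was not computed.

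**Figure D5:**
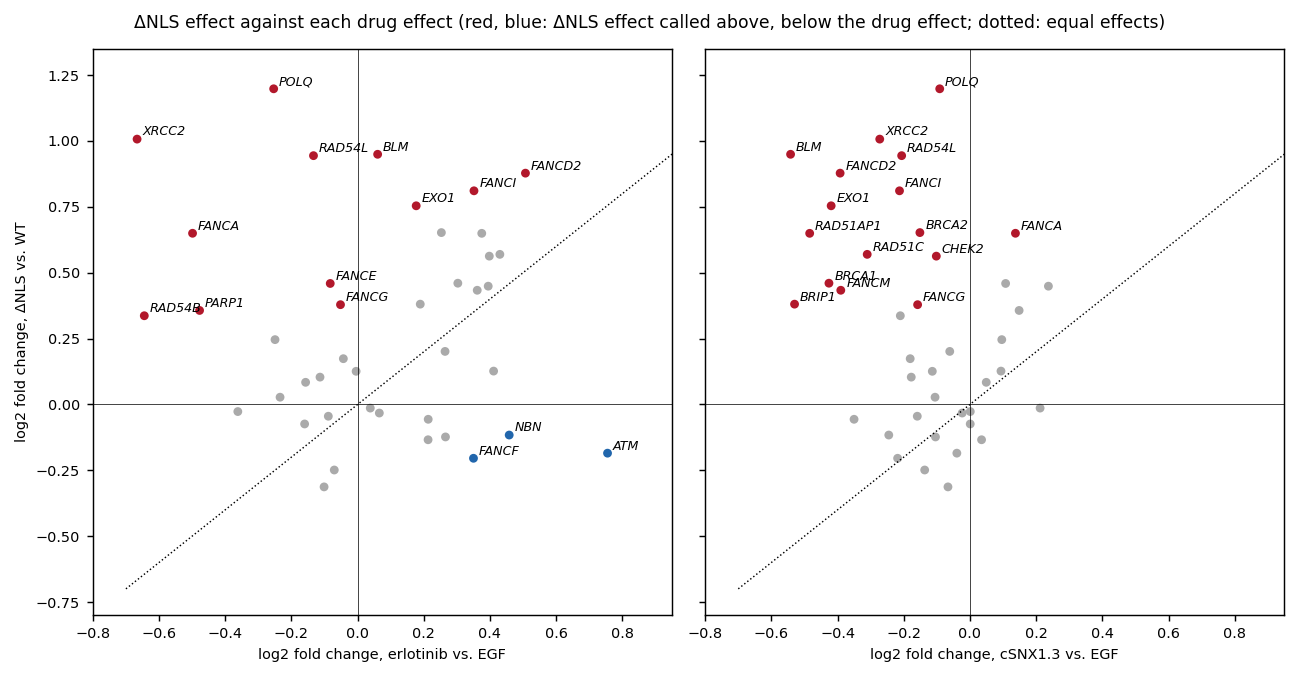
Log2 fold change in ΔNLS vs. WT against that in erlotinib vs. EGF (left) and cSNX1.3 vs. EGF (right), 1 point per gene; colour marks genes whose 2 effects differed in the interaction test (red, ΔNLS effect higher; blue, lower) and the dotted line marks equal effects. On the right 16 genes are red and none is blue, and on the left 12 are red and 3 blue.

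By the tests given above, RAD51AP1 was called in all 3 comparisons, higher with erlotinib, lower with cSNX1.3 and higher in ΔNLS cells, and no other of the 41 genes was. This count of 1 depends on the fit. FANCD2 was also called in all 3 in 4 alternative fits, and RAD51AP1 lost its erlotinib call in 2 of 6 fits without 1 library and its cSNX1.3 call in 3 of 6. By the same tests 13 genes were called in none of the 3: PALB2, BARD1, XRCC3, XRCC4, XRCC6, PRKDC, NHEJ1, FANCL, MRE11, RAD50, WRN, RPA2 and CHEK1. XRCC6, the most abundant of the 41 per length, is among them. The shares of all genes called in all 3 or in none of the 3 were not computed, so these counts have no background beside them.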

How the data were processed

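RNA of 15 libraries, 3 in each of 5 groups named by the sample labels, was analysed, and none was left out. The authors trimmed reads with TrimGalore 0.6.7, aligned them to GRCh38 with STAR 2.7.9a and counted read pairs per gene with featureCounts in its unstranded mode, and deposited the raw counts without normalization. The annotation release is not given in the sources used here. Gene names and positions come from GENCODE 44, which held 61399 of the 61552 identifiers, all 41 repair genes among them.

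Counts were tested with edgeR 4.0.16 in R 4.3.3: TMM scaling, filterByExpr by group, a robust quasi-likelihood fit of the 9 drug libraries, the 6 line libraries or, for the interactions, all 15, and Benjamini-Hochberg adjustment over all genes tested with a threshold of 0.05. Fold changes are log2. Their standard errors were derived from the fold change and the F statistic of the test. The 95% intervals are a normal approximation from these errors and are somewhat too narrow for so few libraries. CPM, their SDs and levels per kb of the Ensembl canonical transcript were computed from TMM-scaled library sizes. The test was tested on simulated data. Of genes changed 1.5-fold it recovered 49 of 67 in erlotinib vs. EGF and 54 of 67 in ΔNLS vs. WT. False calls were 15 of 190 and 8 of 194. The 41 genes, the other lists and the rule for genes given by library (11 fixed genes, and in each direct comparison the 5 called with the largest change and no overlap) were chosen with earlier results of these data known. FANCI, ATR and other genes given by library beyond that rule were added for their role. Alternatives were DESeq2 1.42.0 as the test, its size factors within edgeR, no filter, at least 10 counts in every library, other sets of libraries, an adjusted p under 0.01, a replicate block and fits without each library in turn. An offset for GC content and length, fitted within edgeR, was added after seeing the data. The promoter windows are those of RefSeq.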

Additional observations from a re-analysis of the deposited data

Results flagged for a closer look

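The ΔNLS effect, that of ΔNLS vs. WT, differed from a drug effect in 31 tests of the interaction over all 15 libraries. Against erlotinib 15 of the 41 genes differed, or 36.6% beside 44.7% of all 16524 genes. Against cSNX1.3 it was 16, or 39.0% beside 23.1%. Each is given as the ΔNLS effect minus the drug effect in log2 units. Against erlotinib, the value was higher for XRCC2 (1.68), POLQ (1.46), FANCA (1.16), RAD54L (1.09), RAD54B (0.99), BLM (0.90), PARP1 (0.84), EXO1 (0.59), FANCE (0.55), FANCI (0.47), FANCG (0.44) and FANCD2 (0.38). It was lower for ATM (-0.93), NBN (-0.56) and FANCF (-0.54). Against cSNX1.3, it was higher for BLM (1.49), POLQ (1.29), XRCC2 (1.28), FANCD2 (1.27), EXO1 (1.18), RAD54L (1.15), RAD51AP1 (1.14) and FANCI (1.03). It was also higher for BRIP1 (0.91), BRCA1 (0.89), RAD51C (0.88), FANCM (0.83), BRCA2 (0.80), CHEK2 (0.67), FANCG (0.54) and FANCA (0.51). In the same tests 38 of 38 mitosis genes differed toward ΔNLS against erlotinib and 37 against cSNX1.3, and 36 and 29 of 48 S phase genes did so. The drug and line experiments differ in the cells and in how EGFR was expressed as well as in the perturbation, which cannot be told apart here.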

How the results depend on the processing

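The number of the 41 genes called kept within 1.5 times of the reported one under most alternatives. An adjusted p under 0.01 in place of 0.05 left 9 genes in erlotinib vs. EGF and 0 in cSNX1.3 vs. EGF. A fit of all 15 libraries gave 7 genes in cSNX1.3 vs. EGF, all lower. The offset for GC content and length, chosen after seeing the data, gave 25 genes (22 higher) in the interaction of ΔNLS with erlotinib in place of 15, and turned FANCL from an uncalled negative value to a called positive one in cSNX1.3 vs. erlotinib (0.25) and in that interaction (0.30). It also took the median of the 41 genes in erlotinib vs. EGF from 0.06 to -0.01. The 41 genes have longer and more GC-poor transcripts than the genes tested (median 4620 against 2900 bases, 41.8 against 48.9% GC), and the cause was not tested. DESeq2 called 16 genes with erlotinib, 5 with cSNX1.3 and 23 in ΔNLS vs. WT.

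Leaving out 1 library at a time gave 10 to 15 genes in erlotinib vs. EGF, 0 to 5 in cSNX1.3 vs. EGF, 18 to 20 in cSNX1.3 vs. erlotinib, 20 to 23 in ΔNLS vs. WT, 14 to 17 in the interaction with erlotinib and 16 to 18 in that with cSNX1.3. In cSNX1.3 vs. EGF the count was 2 without EGF replicate 1, 1 without EGF replicate 3, 0 without cSNX1.3 replicate 2 and 2 without cSNX1.3 replicate 3. Replicate numbers did not pair the libraries, since same-numbered libraries had correlations of deviations of -0.232 to 0.286 in the drug and -0.106 to -0.0154 in the line experiment. With the replicate block the counts were 15, 4, 20 and 22 in the 4 direct comparisons, in the order above, and 15 and 17 in the interactions. A gene that was not called with 3 libraries per group is not shown to be unchanged.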
